A study of Mus musculus with 2 samples.

Results

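Hfm1, Tex11, Rnf212, Mlh3 and Brca2 are 5 mouse genes of meiotic crossover formation and recombination, for which a list of BUD31 peaks names at least 1 peak. BUD31 is a splicing factor. The genes were picked by gene symbol from the authors' annotated list of RNA immunoprecipitation (RIP-seq) peaks, in which 3258 genes are named, and they carried 69 of its 16331 peaks. Because the choice rested on having peaks in this list, the number, position, class and width of those peaks are given as a description. The study has 1 library from an immunoprecipitation with an antibody against BUD31 and 1 library of input RNA, for which 10% of the total RNA was kept. Both came from C57BL/6J testes at postnatal day 14, dissociated enzymatically into single cells, and the labels name no allele or drug for either. The labels call the preparation germ cells and state neither a sort nor how many animals were pooled.

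Meiotic recombination starts from programmed DNA breaks. BRCA2 loads strand exchange recombinases onto the resected ends. A subset of the joint molecules that follow is then stabilised by the so-called ZMM proteins, among them the helicase HFM1 (the mammalian counterpart of yeast Mer3), TEX11 (the counterpart of Zip4) and the RING finger protein RNF212 (related to Zip3). An endonuclease that contains MLH3 resolves the selected intermediates as crossovers. Mice that lack Hfm1, Tex11, Rnf212 or Mlh3 lose crossovers, and the males are infertile or subfertile.

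A peak in this list is a stretch of the mm10 genome built from bins of 200 bp on chromosome 5, 205 bp on chromosome 12 and 230 bp on the X chromosome, with 1 annotation class and 1 gene name. It has no strand, read count or score, so depth is unknown, and neither a test nor a replicate check was possible with 1 library per group. More transcript in the cells and stronger recovery by the antibody therefore cannot be told apart, nor can the contributions of different cell types. Over all chromosomes in the list 18.8% of coding genes had a peak. Of 5 germ cell markers on chromosomes with peaks, 4 had a peak (Boll with 16, Sycp2 with 20, Kit with 3 and Sycp3 with 1) and Dazl had none. Of 18 markers of somatic testis cells 4 had one, a share near that background, among them Kitl with 6 and Mylk with 15; the lists for Leydig cells, macrophages and endothelial cells, with 3 such members each, had none. Their part in the values below was not tested. Among protein-coding genes a peak was listed for 39.2% on chromosome 5, 44.2% on chromosome 12 and 48.6% on the X chromosome, which is the background for the members' having one.

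Hfm1 carried 12 peaks over chr5:106840193-106926712, a gene of 86.5 kb on the minus strand. Of these, 11 were annotated as intron and 1 as exon, and together they covered 14.2 kb, or 16.4% of the gene. Read from the 5′ end their widths were 2400, 2000, 200, 3200, 1600, 200, 200, 400, 600, 200, 200 and 3000 bp. Thus 5 peaks of 1 bin each stood beside 5 that reached the chromosome's median width of 800 bp. The 5′ 50% of the gene held 10.2 kb of the covered length and the 3′ 50% held 4.0 kb. The longest stretch without a peak, 22.6 kb, lay in the 3′ part and was followed by the narrow peak and the 3000 bp peak nearest to the 3′ end. The exon peak, at chr5:106880201-106880800, spanned 600 bp. The authors tied the 12 peaks to 5 transcript models, 7 of them to 1 predicted model and 1 to a noncoding model.

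The peak of Hfm1 nearest to the 5′ end, at chr5:106923801-106926200, was annotated as intron. It covered all 300 bp of the start window that RefSeq (GRCm38.p6, the mm10 assembly) gives for the gene, from 250 bases before to 50 after the start of a transcript at position 106925890. The gene's extent in the table ends 0.512 kb upstream of the peak. Such whole coverage was listed for 37 of 439 coding genes on chromosome 5 that had a peak and a start window (8.43%). The windows of the other 3 members with an entry in that table were not touched: the nearest peaks lay 1330 bp away for Brca2, 1777 bp for Rnf212 and 4891 bp for Mlh3. The table has no window for Tex11.

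The bases before that start, chr5:106925891-106926140, are shown because they are the stretch of the 5′ end of Hfm1 that the peak spans. They are written 5′ to 3′ on the minus strand, and capitals mark a match to CNCCTCAG, the motif reported for the meiotic initiation factors STRA8 and MEIOSIN, read here on the opposite strand:

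Hfm1 start, upstream: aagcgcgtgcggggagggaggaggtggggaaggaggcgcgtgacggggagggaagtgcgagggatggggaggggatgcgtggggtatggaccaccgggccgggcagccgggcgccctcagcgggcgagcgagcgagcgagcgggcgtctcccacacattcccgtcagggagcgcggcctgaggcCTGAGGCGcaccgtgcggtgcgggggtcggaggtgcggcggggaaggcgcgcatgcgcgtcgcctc

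A second match, on the gene's own strand, runs across the start itself and is in capitals in the 30 bases at chr5:106925878-106925907:

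Hfm1 start, across: cgcatgcgcgtCGCCTCAGcctcccgcccg

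The matches do not overlap. The motif was searched on both strands of 32851 start windows and found in 7.94% of them. The Hfm1 window has a GC content of 75.3%, against a median of 52.7% over all windows, and among the 3148 windows with at least 70% GC the motif was in 10.3%. The windows of Rnf212, Mlh3 and Brca2 hold no match. A match describes the letters and not a bound site, and a RIP-seq peak does not measure binding of a transcription factor.

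Tex11, on the X chromosome at chrX:100838648-101059639, had the most peaks and the largest covered share of the 5 genes. Its 38 peaks covered 139 kb of 221 kb (63.0%), and 37 were annotated as intron. The single exon peak, chrX:100954131-100955510, was 1380 bp wide. The narrowest was 460 bp, the widest 12190 bp and the median 2760 bp, and none was a single bin. The 10 peaks of at least 5 kb held 55.8% of the summed width, and the widest, chrX:101030031-101042220, held 8.75% of it. Peaks lay close together: the median gap was 920 bp, the longest was 9.43 kb, and 6 of 37 gaps were exactly 1 bin of 230 bp. All 10 equal segments of the gene held peaks, from 25.7% of the sixth segment to 91.7% of the last, counted in rising coordinates because the tables used here give no strand for this gene. The end with the highest coordinate lay under a peak of 8280 bp, which ran 61 bp past the gene. Another peak, chrX:100998751-101008180, also spans the small nuclear RNA genes Gm24577 and Gm27510, of 63 and 64 bp. Neither has a peak named for it.

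Rnf212, at chr5:108728105-108775067 on the minus strand, had the fewest peaks. There were 5, all annotated as intron and tied to 1 transcript model, and they covered 7.0 kb of 47.0 kb (14.9%). From the 5′ end their widths were 1400, 1400, 2000, 1000 and 1200 bp, at distances of 1.87, 14.9, 19.7, 24.3 and 33.7 kb. The widths were thus the most even of the 5 genes, each above the chromosome's median of 800 bp. The last 12.1 kb of the gene had none, nor did an 11.6 kb stretch after the first peak. That stretch holds a long noncoding RNA gene, 1700047L14Rik, which was not covered.

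**Figure D1:**
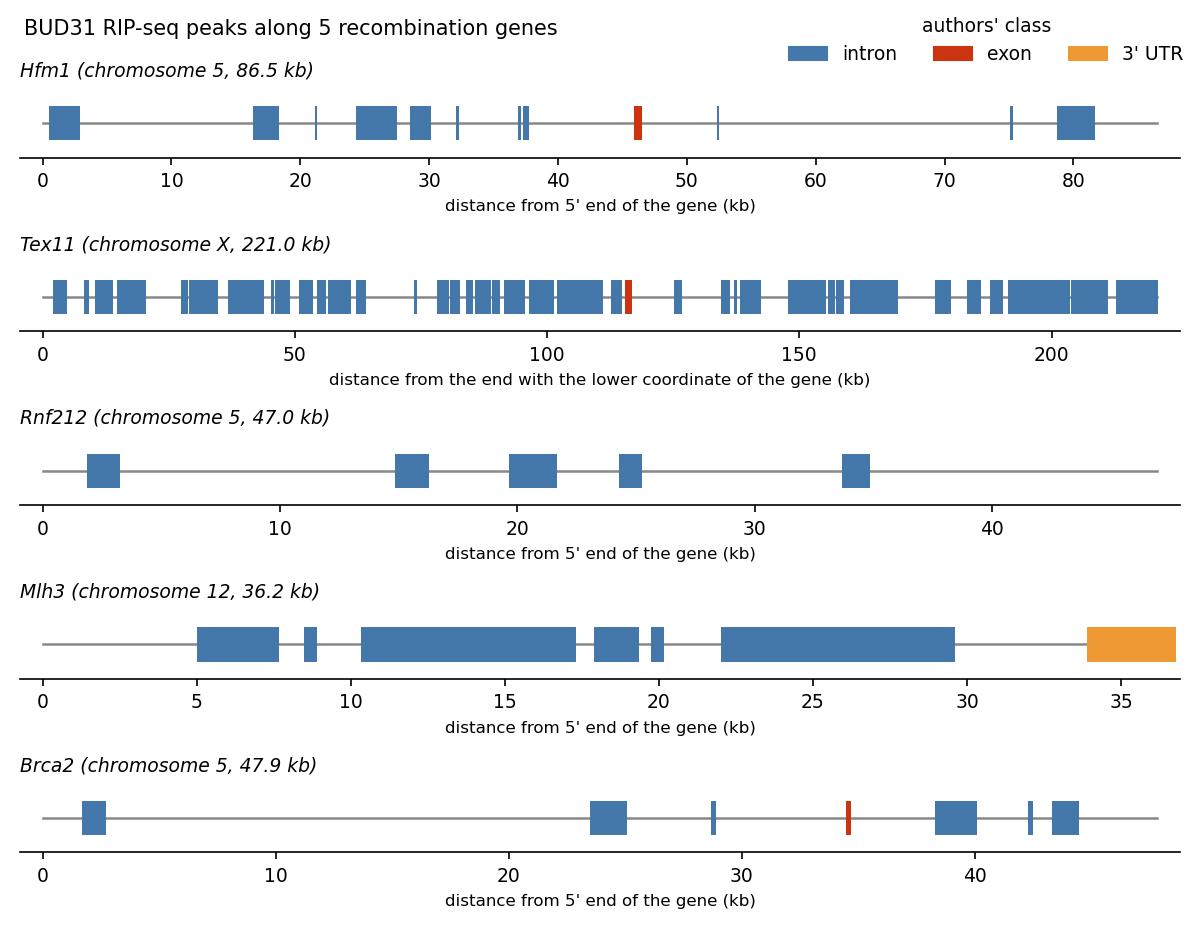
Peaks of the authors' list (bars, to scale) along each of the 5 genes (grey line, its extent), with the distance in kb from the 5′ end, or for Tex11 from the end with the lower coordinate, on the x axis. Colours give the authors' class. The 38 peaks of Tex11 and the 7 of Mlh3 fill most of their genes, while the 5 of Rnf212 and the 7 of Brca2 leave long gaps.

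Mlh3, the shortest of the 5 at 36.2 kb (chr12:85234466-85270647, minus strand), had 7 peaks that covered 21.8 kb, or 60.1%. From the 5′ end their widths were 2665, 410, 6970, 1435, 410, 7585 and 2870 bp. The first 6 were annotated as intron. The last, chr12:85233876-85236745, was annotated as 3′ UTR and ran 590 bp past the gene's 3′ end, and it is the only UTR peak among the 69. A pair of wide peaks, chr12:85253351-85260320 and chr12:85241051-85248635, made up 65.1% of the summed width. The first 5.0 kb of the gene had no peak, and the longest gap between peaks was 4.305 kb. The 5′ 50% of the gene held 10.2 kb of the covered length and the 3′ 50% held 11.5 kb, while the 10 equal segments of the gene ran from 0% to 100% covered.

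The 7585 bp peak of Mlh3 also spans the whole 63 bp gene of the microRNA Mir6938, at chr12:85245923-85245985, which lies within Mlh3, and no peak in the list is named for it. Without strand or read counts the peak cannot be divided between the 2 genes. The mature sequences from RefSeq are shown because they lie under that peak, with the seed (bases 2 to 8) in capitals:

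mmu-miR-6938-5p: uUGGAGCUagcuccagagagagu

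mmu-miR-6938-3p: uCAUCUGGggcugucuccuuag

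The other wide intron peak of Mlh3 spans the 428 bp pseudogene Gm46369.

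Brca2, at chr5:150522297-150570147 on the plus strand, had 7 peaks that covered 6.2 kb of 47.9 kb (13.0%), the smallest share of the 5. From the 5′ end the widths were 1000, 1600, 200, 200, 1800, 200 and 1200 bp, at 1.70, 23.5, 28.7, 34.5, 38.3, 42.3 and 43.3 kb. The fourth, chr5:150556801-150557000, was annotated as exon and the others as intron. After the first peak 20.8 kb passed without one, and 77.1% of the covered length lay in the 3′ 50% of the gene. This is the reverse of Hfm1 and Rnf212 on the same chromosome, where 71.8% and 68.6% lay in the 5′ 50%. The 1600 bp peak covers 88 of the 141 bp of a small nuclear RNA gene, Gm25284, and the 1800 bp peak covers 415 bp of the long noncoding RNA gene Gm42529. Those peaks cannot be divided between the overlapping genes.

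Introns held 65 of the 69 peaks (94.2%, Wilson 95% interval 86.0% to 97.7%, which covers counting error only), against 81.8% of all peaks. Without Tex11, which holds 38 of them, the share was 28 of 31 (90.3%, 75.1% to 96.7%). On chromosomes 5, 12 and X introns held 82.6%, 85.5% and 75.3% of peaks. None of the 69 was classed as intergenic, upstream or downstream, against 7.76% of all peaks, and 4 (5.80%) were in exons or a UTR, against 10.4%. When peaks outside genes are left out, introns held 88.7% of all peaks, which lies within both intervals. Since each peak has a single class, an intron peak of several kb can also hold exons.

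**Figure D2:**
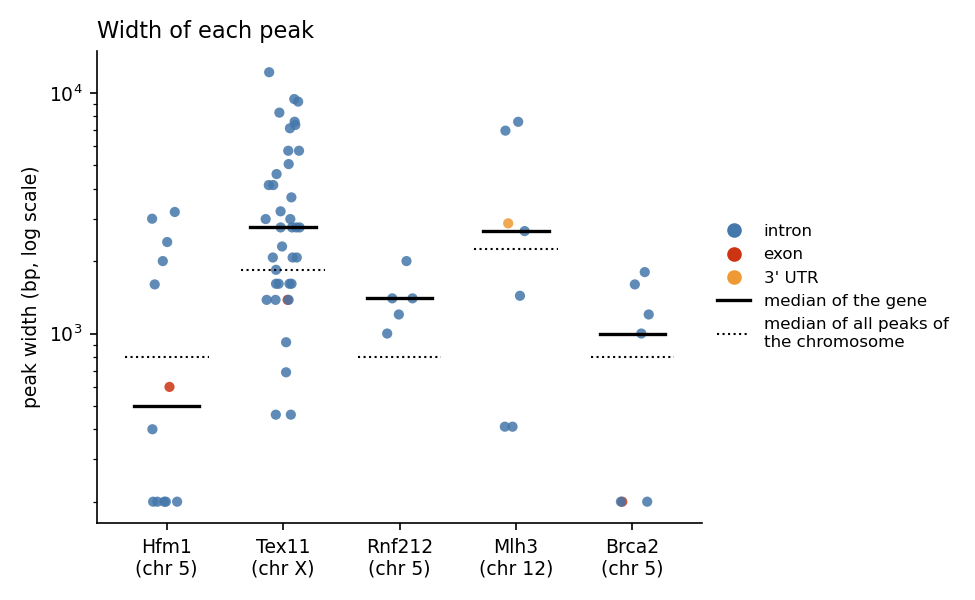
Width of each of the 69 peaks in bp (log axis) by gene, coloured by the authors' class. Solid lines are each gene's median and dotted lines the median of all peaks on its chromosome (800 bp on 5, 2255 bp on 12, 1840 bp on X). The median of Hfm1 lies below its dotted line and those of the other 4 genes above theirs.

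In covered share the genes fell into a high pair, Tex11 (63.0%) and Mlh3 (60.1%), and a low trio, Hfm1 (16.4%), Rnf212 (14.9%) and Brca2 (13.0%). With no replicates, the order within the pair and within the trio has no spread to be judged against. The low trio lies on chromosome 5 and the high pair on 12 and X, and the chromosomes differed in the same direction. Coding genes with a peak and a span of 0.5 to 2 times that of the member had a median covered share of 30.3% on the X chromosome around Tex11 and 32.8% on chromosome 12 around Mlh3. On chromosome 5 it was 8.63%, 10.5% and 10.5% around Hfm1, Rnf212 and Brca2. Each member stood above that median, by 2.08 times for Tex11, 1.90 for Hfm1, 1.83 for Mlh3, 1.42 for Rnf212 and 1.24 for Brca2. Because the members were chosen with their peaks in this list known, these multiples and the ranks below are a description. Their ranks were 11 of 72 for Tex11, 39 of 176 for Hfm1, 38 of 146 for Mlh3, 83 of 238 for Rnf212 and 100 of 242 for Brca2. Mlh3 and Rnf212 lay within the interquartile ranges of their comparison genes, 13.0% to 60.3% and 5.53% to 18.2%, and so did Brca2 (5.47% to 17.9%). Hfm1 lay just above its own (5.30% to 15.1%) and Tex11 above its own (4.10% to 52.0%).

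**Figure D3:**
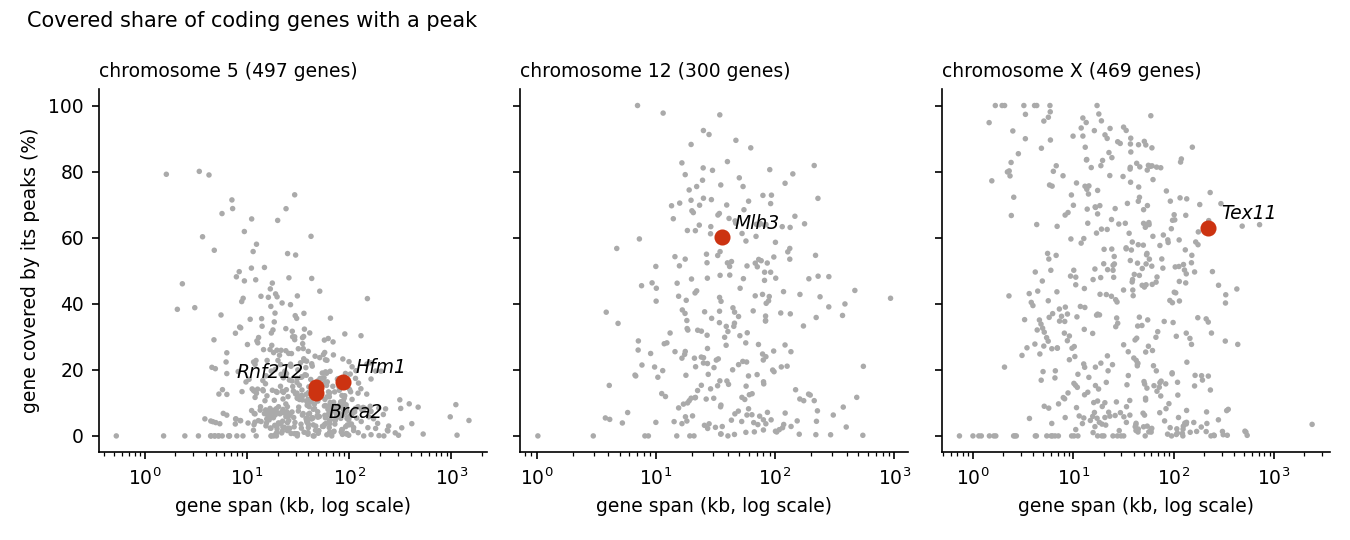
Percent of each coding gene covered by its own peaks against its span in kb (log axis) on chromosomes 5, 12 and X, for the 497, 300 and 469 genes with a peak. Red points are the 5 members and grey points all genes. Hfm1, Rnf212 and Brca2 lie at 16.4%, 14.9% and 13.0%, and Mlh3 and Tex11 at 60.1% and 63.0%.

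Not every running number in these genes is in the list. Peaks carry running numbers in genome order, and between the first and last number of each gene the list keeps 38 of 44 for Tex11 (86.4%), 7 of 10 for Mlh3 (70%), 5 of 11 for Rnf212 (45.5%), 12 of 33 for Hfm1 (36.4%) and 7 of 28 for Brca2 (25%). None of the numbers in these runs is listed for another gene. The shares kept over the whole chromosomes were 66.8% on X, 42.4% on 12 and 27.6% on 5. What removed the rest is not given in the sources used here, and its part in the covered shares was not tested. Both measures put Tex11 and Mlh3 first and Brca2 last, but Hfm1 stood above Rnf212 in covered share and below it in numbers kept. Each run begins and ends at a listed peak by definition, which raises the share kept, most in short runs. The order of Hfm1 (33 numbers) and Rnf212 (11) in numbers kept therefore cannot be judged. For the same reason the shares of the genes are not directly comparable with those of whole chromosomes.

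Of the 10 coding genes next to the members, 1 on each side, 5 had a peak, close to the 39.2% to 48.6% of coding genes on these chromosomes. Rnf212 was flanked by Tmed11, 2.17 kb away, and Fgfrl1, 21.2 kb away, with 0 and 2 peaks. Mlh3 lies between Eif2b2 and Acyp1, neither with a peak, although Zc2hc1c, which overlaps Acyp1, had 1 intron peak over 23.7% of its length. Brca2 lies between Zar1l with none and N4bp2l1 with 1 peak in its 3′ UTR that covered 0.740% of it. Hfm1 lies between Zfp644, 143 kb away, and Cdc7, a replication kinase gene 37.6 kb away. Zfp644 had 5 peaks, including a downstream peak, and 13.8% of it was covered. Cdc7 had 4 peaks over 22.9%. Dlg3, 20.2 kb from Tex11, had 10 peaks named for it, some of them classed as intergenic, and 45.1% of it was covered. Slc7a3, on the other side of Tex11 at 19.5 kb, had none, although Snx12, which overlaps it, had 12 over 31.1%.

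The genes whose profiles were most like those of the members were found on the same chromosome, over 10 equal segments from the 5′ to the 3′ end (for Tex11 in rising coordinates), among coding genes with at least 3 peaks and 0.5 to 2 times the span. Likeness was the mean absolute difference in percent covered per segment, a description within 1 list. For Hfm1 the nearest of 123 candidates were Mphosph9 (8.60 percentage points), Rnf216 (10.1) and Lin54 (11.0), against a median of 17.0 over the candidates. For Brca2 the nearest of 144 were Rufy3 (7.20), Rbm19 (7.53) and Ube3b (9.20), with a median of 17.6. For Rnf212 the nearest of 141 were Zfp644 (9.82), Gtf2i (10.1) and Rab28 (10.3), with a median of 18.9. A profile without coverage would differ from a member by the member's own covered share: 16.4 points for Hfm1, 13.0 for Brca2 and 14.9 for Rnf212. Each lies below its median, so those medians are a weak yardstick of likeness. Lin54, Rufy3 and Gtf2i had only 5.46%, 6.44% and 6.76% of their length covered. For Mlh3 and Tex11 the covered share, 60.1 and 63.0 points, lies above the medians given below. Differences were larger for the densely covered members, over all candidates as well as for the nearest. Pomt2 (17.0), Togaram1 (22.6) and Sel1l (25.1) were nearest to Mlh3 among 88, and Cnksr2 (19.2), Atrx (19.3) and Clcn5 (21.0) to Tex11 among 62, where the medians were 41.3 and 37.3. Cnksr2 resembles Tex11 also in size, with 40 peaks over 65.2% of 223 kb.

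The wider pathway was described with 80 genes in 6 lists by role, the 5 members included. Of these, 3 symbols found no match in the reference table, 23 genes on chromosomes for which the list holds no peak are not analysed here, and 54 remained. A peak was listed for 21 of the 54 (38.9%, 27.0% to 52.2%), a count that the 5 members, chosen for having peaks, raise. Without them it was 16 of 49 (32.7%, 21.2% to 46.6%), against 18.8% of all coding genes on chromosomes with a peak. The share differed by chromosome. On the 8 well covered chromosomes, those with a peak in 10% or more of their coding genes, 21 of 24 genes had one (87.5%, 69.0% to 95.7%), against 35.7% of coding genes there. On the thinly covered chromosomes 0 of 30 had one (up to 11.4% by the interval), against 2.28%. The 24 genes are long, with a median span of 42.2 kb against 21.5 kb, and of 2469 coding genes of 21.1 to 84.4 kb on those chromosomes 48.3% had a peak. Leaving out the 5 members, 16 of 19 genes on these chromosomes had one (84.2%, 62.4% to 94.5%). The lists were chosen with earlier results of these data known, and the well covered chromosomes by their share of genes with a peak. Leaving out the members does not remove that choice, so these shares are a description only. The median covered share of the 21 genes was 21.9%, against 15.5% of all coding genes with a peak on those chromosomes.

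Among the ZMM-type and crossover designation factors, the 3 on well covered chromosomes are the members Hfm1, Tex11 and Rnf212. In the mismatch repair and crossover resolution list 5 of 8 genes had a peak, against a background of 18.8%. All 5 lie on well covered chromosomes, where the background is 35.7%, and the 3 without a peak on thinly covered ones. Beside Mlh3 these were Pms2, a mismatch repair gene, with 6 peaks over 6.36%, and Exo1, an exonuclease of mismatch repair, with 6 over 23.0%. Gen1, a Holliday junction resolvase gene, had 2 over 21.9%, and Slx4, the scaffold of structure-selective nucleases, had 3 over 34.4%. In this list 8 of 24 peaks lay in exons or UTRs, against 10.4% of all peaks, and the difference was not tested. Exo1 had 2 peaks in the 3′ UTR and Gen1 and Slx4 had 1 each, like Mlh3.

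Of the genes that dissolve or unwind recombination intermediates, Helq, a helicase gene, had 5 intron peaks over 32.3%, Fancm, a translocase gene, had 3 over 22.4%, and Wrn had 2 that covered 1.59% of its 151 kb. Rmi2, of the BLM complex, had none. Among recombinases and their loaders, 6 of 8 had a peak. Brca2 was the second lowest in covered share of these 6. Bard1, a ubiquitin ligase subunit of break repair, stood highest with 13 peaks over 64.9%, and the strand exchange factor gene Rad51b had 31 over 21.1% of 551 kb. These genes lie on different chromosomes, Bard1 on chromosome 1, and the order takes no account of that. Rad51ap2 had 1 exon peak of 2050 bp, Brme1, whose product joins BRCA2 in meiosis, had 1 intron peak of 4400 bp, and Tex15 had 2 over 2.90%. The strand exchange factor genes Xrcc2 and Xrcc3, of 16.0 and 10.7 kb, had none.

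In the remaining lists Mcmdc2, needed for meiotic break repair, had 5 intron peaks over 63.0%, a share like that of Tex11 and Mlh3, and Mcm9 had 4 over 5.64%. Mcmdc2 lies on chromosome 1, where no comparison with genes of like span was made, and covered shares differed between chromosomes. Rbbp8, the gene of the end resection factor CtIP, had 7 over 41.3%, and Rad9b, of an alternative checkpoint clamp, had 3 over 17.4%. Over the 16 genes that are not members, introns held 84 of 94 peaks, exons and UTRs held 9, and 1 was downstream of its gene.

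**Figure D4:**
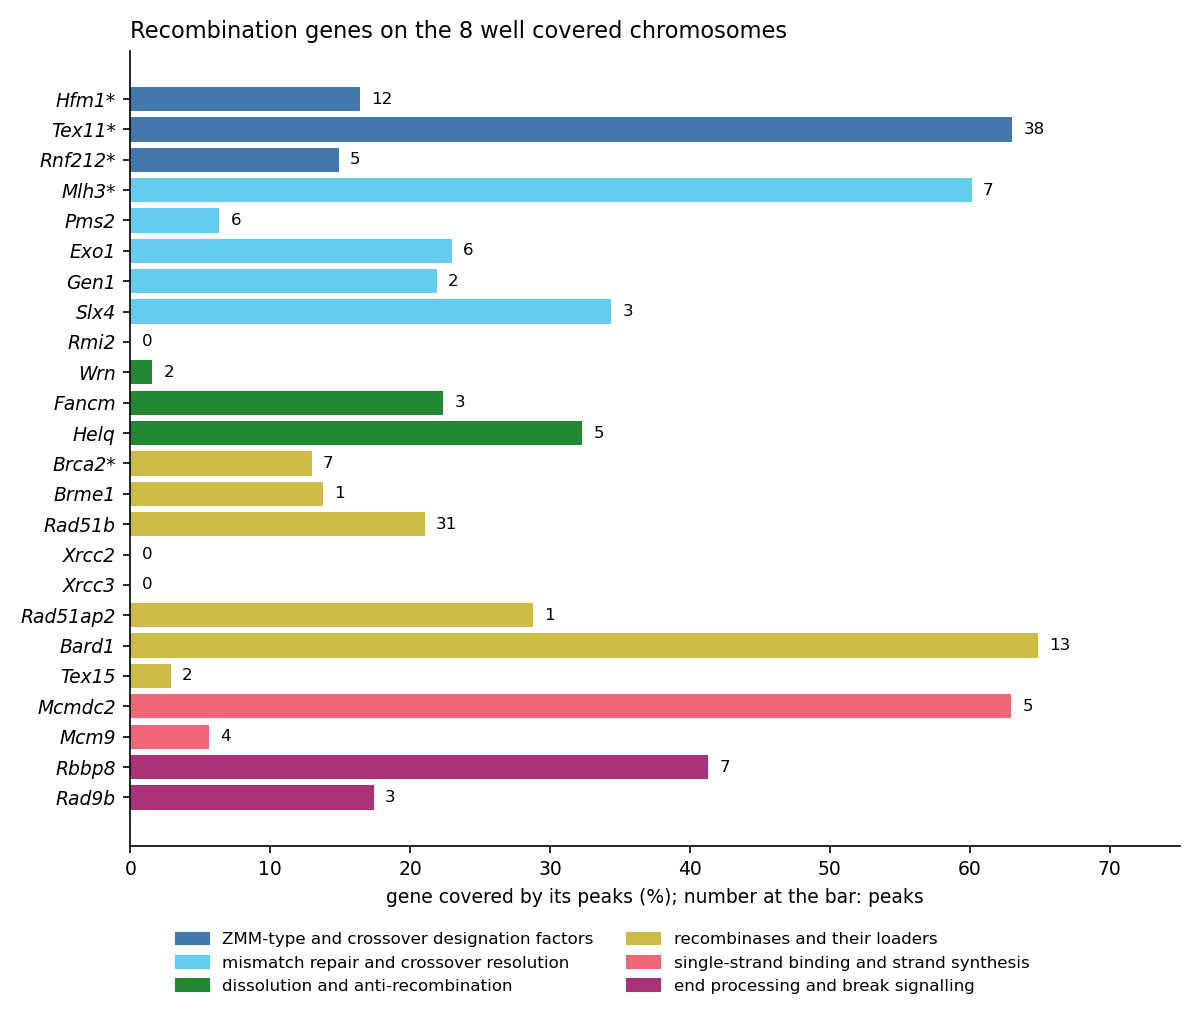
Percent of each gene covered by its peaks for the 24 recombination genes on the 8 well covered chromosomes, coloured by role, with the number of peaks at the end of each bar and the 5 members marked by an asterisk. Tex11, Mlh3, Bard1 and Mcmdc2 pass 50%, while Rmi2, Xrcc2 and Xrcc3 have no peak.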

How the data were processed

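A single list of annotated peaks is deposited. Per the submitters' processing notes, the authors used TopHat2 2.0.13 and the mm10 genome. Which peak caller and threshold they applied, and how the input entered, is not given in the sources used here. Per the file headers each peak has a start and an end in bp, a class, a transcript and a gene. No column of per-sample values is present.

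Gene extents and start windows came from RefSeq tables of GRCm38.p6, the mm10 assembly, with coordinates counted from 1. Covered length is the union of the peaks named for a gene within its extent. Strand came from the start window table. Named genes followed a rule: the members, pathway genes with a peak, pathway genes without one on well covered chromosomes, genes over or inside a member, and 3 genes of nearest profile per member. Flanking genes were added afterwards. The members and lists were chosen with earlier results of these data known. Computations used Python 3.11.15, numpy 2.4.6 and pandas 2.3.3, and were checked on simulated data.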

Additional observations from a re-analysis of the deposited data

How the results depend on the processing

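Of 65 recomputed values 55 stayed within 1.5 times the count, or within the counting interval of the share, and 10 moved beyond it. For covered shares that interval took the bins of a gene as units. Neighbouring bins of a peak are not independent, so it served only as a cut-off and measures no spread between libraries. Assigning peaks by overlap with the gene, keeping classes inside the gene, or asking for 50% of a peak inside the gene changed no member's count or share. The class and 50% settings could not change them, since all members' peaks were classed inside genes and lay wholly or mostly within them. Likewise Tex11, Rnf212 and Mlh3 had no peak of 1 bin to leave out. Such fixed outcomes are among the 55, which is therefore no measure of robustness. A stricter list, of peaks no narrower than the median of their chromosome, left 5 in Hfm1, 4 in Mlh3 and 4 in Brca2 by construction, and covered 56.5% of Tex11, with 97.7% of members' peaks in introns. Merging neighbours within 1000 bp left 19 peaks in Tex11 and 4 in Mlh3. Leaving out peaks of 1 bin, added after seeing the data, left 7 in Hfm1 and 4 in Brca2. Well covered chromosomes alone raised the pathway share to 87.5%. Xrcc3 gained a peak by overlap, which the authors name for Klc1. No paired analysis was possible because each group has 1 library.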
